A study of Arabidopsis thaliana with 6 samples.

Results

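The 10 genes described here encode cytosolic enzymes of glycolysis in Arabidopsis thaliana, from aldolase to enolase, and include the aldolase gene FBA5. They were picked from the 11167 genes of the deposited table by enzymatic step and compartment, and FBA5 was singled out because its transcript was already known to be low in the very comparison given below. The values that chose the genes are therefore given as a description, with no p-value. All 10 were present in the table and all 10 passed the filter on low counts, which kept 10622 genes.

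Expression was measured in whole seedlings of the flu 1-1 mutant (Col-0 ecotype, 2 weeks old) kept in water. In 3 libraries the seedlings had spent 4 h in darkness and in the other 3 libraries 0 h, and the light that followed lasted 30 min at 30 µE. FLU restrains the synthesis of δ-aminolevulinic acid, the precursor of chlorophyll and haem, so that flu seedlings build up protochlorophyllide in the dark and produce singlet oxygen once illuminated. Both groups carried the mutation, both had been grown on medium with sucrose before they were moved to water, and each library came from pooled whole seedlings according to the methods of the study. No group stayed in light for the same time, so darkness itself, the photosensitiser, the hour of sampling and the time spent in water cannot be told apart. The labels give growth in continuous light and the methods of the study a daily cycle of light and dark. A treatment label words the hours as exposure to light, whereas the protocol gives darkness, which was followed here. The protocol's wording is also the only source for the 30 min of light given to 0 h seedlings.

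In glycolysis, aldolase cleaves fructose bisphosphate into a pair of triose phosphates, triose phosphate isomerase interconverts them, and glyceraldehyde phosphate dehydrogenase, phosphoglycerate kinase, phosphoglycerate mutase and enolase carry the carbon on toward pyruvate. Plants hold a cytosolic and a plastid copy of most of these steps, encoded in the nucleus by separate genes. In leaves the cytosolic aldolases also work in the opposite direction, joining triose phosphates exported by chloroplasts on the way to sucrose.

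The libraries held 1012425 to 2185464 reads in the 4 h group and 1487666 to 1924910 reads in the 0 h group. Levels are given as CPM, the reads of a gene divided by a library size in units of 1000000 reads, scaled by trimmed mean of M-values, and a floor of 3 reads corresponded to 1.37 to 2.97 CPM. Along the second principal component, which held 18.0% of the variance, the third 4 h library stood at 40.1, far from the other 4 h libraries at -15.0 and -28.8. FLU itself read 154, 215 and 191 CPM at 4 h, against 172, 110 and 136 CPM at 0 h, which checks no label because both groups are mutant. Summed shoot markers, led by the small subunit of Rubisco, spanned 40625 to 51885 CPM at 4 h and 45703 to 53345 CPM at 0 h. The 4 root markers tested, led by the aquaporin gene TIP2;3, summed to 99.2, 138 and 75.1 CPM at 4 h, against 64.8, 83.6 and 75.7 CPM at 0 h. TIP2;3 alone of these 4 passed the test and rose to 91.9, 126 and 69.2 CPM at 4 h, against 53.2, 66.2 and 66.7 CPM at 0 h (log2 fold change 0.63, edgeR adjusted p = 0.0335). EXPA7, an expansin gene of root hairs, had a log2 fold change of -0.62 and did not pass. The glucosidase PYK10, a defining root transcript, read between 1.38 and 5.64 CPM over the 6 libraries, and no read of COBL9 was found in 1 library of each group. The part of root and shoot proportions in the results below was not tested, and in whole seedlings fewer cells of a type and less RNA per cell cannot be told apart.

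Of the 10 enzymes, FBA6 alone was past the adjusted threshold of 0.05 in edgeR's quasi-likelihood test on the higher side, where 8.37% of all genes tested lay. FBA5, FBA7 and GAPC2 were past it on the lower side, which held 8.18% of all genes. The 4 h libraries lay wholly above the 0 h libraries for FBA6 (15.3% of all genes did so) and wholly below them for FBA5, FBA7, FBA8, GAPC2 and ENO2 (16.9% of all genes). The median log2 fold change was -0.21 over the 10 enzymes and -0.06 over all genes tested. Nothing is read from these counts, nor from the calls on single enzymes of the set given below, since the set was made with the comparison known.

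**Figure D1:**
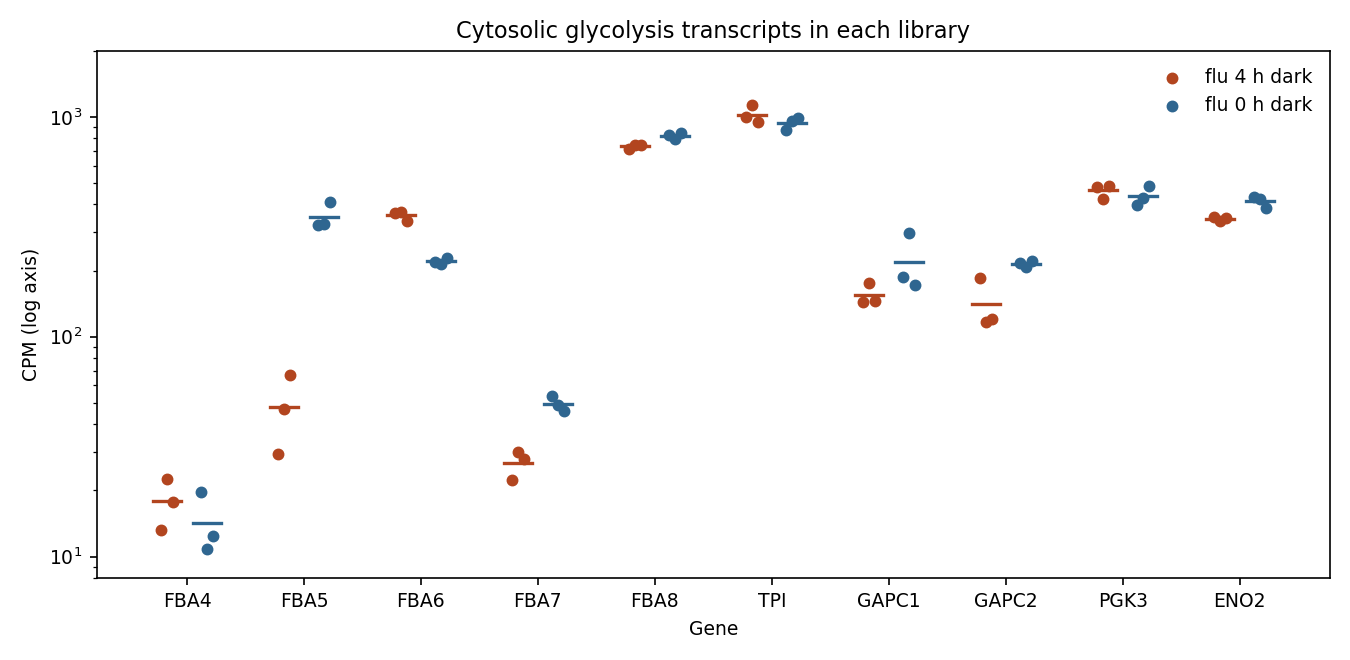
Level of each of the 10 transcripts (CPM, logarithmic axis) in the 3 libraries of flu seedlings after 4 h of darkness (red, left) and the 3 libraries after 0 h (blue, right), with points for libraries and a bar for the mean. FBA5 is the gene with the widest separation, between 29.1 and 67.2 CPM at 4 h and between 323 and 408 CPM at 0 h, while FBA6 is the one gene whose 4 h points all lie above its 0 h points.

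The 5 cytosolic aldolase genes form 2 closely related pairs. The FBA5 and FBA7 proteins share 88.3% of their residues (316 of 358), and FBA6 and FBA8 share 93.6% (335 of 358), whereas FBA5 matches FBA6 at 77.9% and FBA8 at 77.7%. FBA4, the remaining isoform, is closest to FBA6 at 86.6%. In the coding sequence FBA5 and FBA7 agree at 90.1% of 1077 positions and FBA6 and FBA8 at 84.0%. At 186 of these positions FBA5 and FBA7 share one base and FBA6 and FBA8 share another. The end of the coding sequence, bases 988 to 1077 including the stop codon, is shown because it holds the densest run of such positions, 27 in 90 bases, and because it lies toward the transcript end from which the reads were taken. Capitals mark these positions in the sequences, which were read from the RefSeq annotation of TAIR10.1.

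FBA5: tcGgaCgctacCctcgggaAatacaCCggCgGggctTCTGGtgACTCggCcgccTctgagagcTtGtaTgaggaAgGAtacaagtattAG
FBA7: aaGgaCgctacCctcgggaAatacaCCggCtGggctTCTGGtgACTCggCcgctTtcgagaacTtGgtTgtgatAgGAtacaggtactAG
FBA6: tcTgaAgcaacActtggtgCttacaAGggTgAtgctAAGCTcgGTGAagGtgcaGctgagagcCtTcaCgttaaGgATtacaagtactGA
FBA8: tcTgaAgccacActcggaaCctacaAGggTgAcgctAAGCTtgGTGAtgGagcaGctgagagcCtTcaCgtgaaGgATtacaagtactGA

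Reads were taken from transcript 3′ ends, so likeness there sets how well the counts keep the genes apart. Over the last 300 transcript bases FBA5 and FBA7 were 78.2% identical, with a longest shared run of 22 bases. The other aldolase pairs lay between 59.2% and 70.0% there, with shared runs of 8 to 10 bases. Reads of FBA5 and FBA7 are therefore the ones least surely separated in these counts.

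FBA7 and FBA5 are neighbours on the plus strand of chromosome 4 in TAIR10.1. FBA7 (AT4G26520) spans chr4:13388290-13390862 and FBA5 (AT4G26530) chr4:13390754-13393265. The gene spans overlap by 109 bases, but only between model 3 of each gene, whereas model 1 of FBA7 ends at position -934 counted from the start of model 1 of FBA5. FBA7 also overlaps UKL4 by 73 bases on the same strand. FBA4 (AT5G03690) lies on chromosome 5, FBA6 (AT2G36460) on chromosome 2 and FBA8 (AT3G52930) on chromosome 3, each with 3 exons in its first model.

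**Figure D2:**
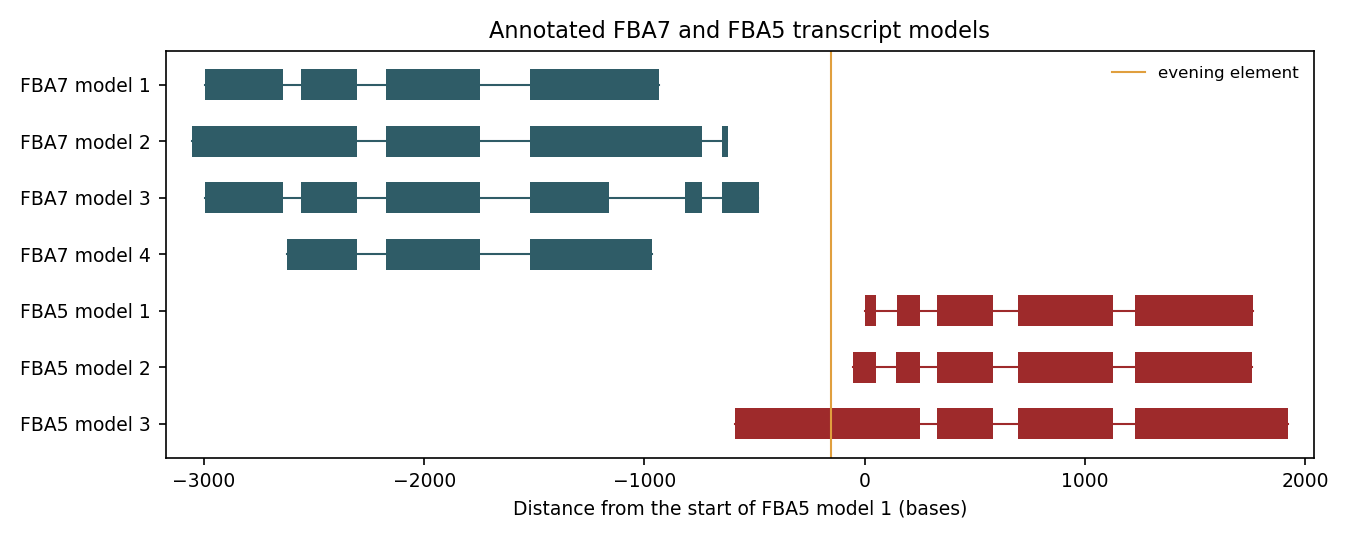
Annotated transcript models of FBA7 (4 models, blue) and FBA5 (3 models, red), drawn by distance in bases from the start of FBA5 model 1, with boxes for exons, lines for introns and a vertical line at the evening element. The element, at -151, lies before models 1 and 2 of FBA5 and inside the first exon of its model 3.

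FBA5 was the enzyme with the lowest fold change of the 10. It was counted at 64, 52 and 68 reads at 4 h, against 528, 633 and 593 reads at 0 h. On the CPM scale this was 29.1, 47.0 and 67.2 at 4 h, against 323, 325 and 408 at 0 h. Every 4 h library was far below every 0 h library, and the third 4 h library was the highest of its group. The means were 47.8 ± 19.1 CPM at 4 h and 352 ± 48.7 CPM at 0 h (SD, n = 3 each), 7.36-fold lower at 4 h, and the log2 fold change was -2.94 (SE 0.22). Among the 6223 genes that averaged 20 reads or more in whichever group was higher, its fold change ranked 8 from the lowest, and among all 10622 genes tested, many of them with few reads, it ranked 122 from the lowest. The log2 fold change was -3.26 without the third 4 h library, which held the most FBA5, and -2.62 without the first, which held the least.

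FBA7, the tandem neighbour of FBA5, was scarcer and also lower. It read 22.3, 29.8 and 27.7 CPM at 4 h, against 53.8, 48.7 and 46.1 CPM at 0 h, with no overlap between the groups. The means were 26.6 ± 3.87 CPM at 4 h and 49.5 ± 3.91 CPM at 0 h (SD, n = 3 each), and the log2 fold change was -0.92 (SE 0.22). It rested on 110 reads at 4 h and 250 reads at 0 h. How many of these reads arose from FBA5 was not tested.

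FBA6 ran the other way. It read 365, 370.2 and 336 CPM at 4 h, against 219, 215 and 229 CPM at 0 h, and each 4 h library was above every 0 h library. The means were 357 ± 18.3 CPM at 4 h and 221 ± 7.28 CPM at 0 h (SD, n = 3 each), a ratio of 1.61 and a log2 fold change of 0.69 (SE 0.15).

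FBA8, the aldolase with the most reads in either group, differed little. It read 716, 748 and 748 CPM at 4 h, against 828, 795 and 843 CPM at 0 h. The 4 h libraries were all below the 0 h libraries, yet the log2 fold change of -0.16 (SE 0.13) was not past the threshold. FBA4 was the rarest, with 13.2, 22.6 and 17.8 CPM at 4 h, against 19.6, 10.8 and 12.4 CPM at 0 h. Its groups overlapped, and its log2 fold change of 0.29 (SE 0.33) rested on 72 reads at 4 h and 71 reads at 0 h.

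The composition of the cytosolic aldolase pool, taken as each gene's share of the summed CPM of FBA4 to FBA8, differed accordingly. FBA5 made up 2.54%, 3.86% and 5.62% of the pool at 4 h, against 22.4%, 23.3% and 26.5% at 0 h. FBA6 made up 31.9%, 30.4% and 28.1% at 4 h, against 15.2%, 15.4% and 14.9% at 0 h. FBA5 thus ranked above FBA6 in each 0 h library and below it in each 4 h library. FBA8 held 62.1 ± 0.627% of the pool at 4 h and 56.4 ± 1.40% at 0 h (SD, n = 3 each). FBA7 held 2.24 ± 0.260% at 4 h and 3.41 ± 0.373% at 0 h. FBA4 held 1.50 ± 0.352% at 4 h and 0.978 ± 0.327% at 0 h.

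**Figure D3:**
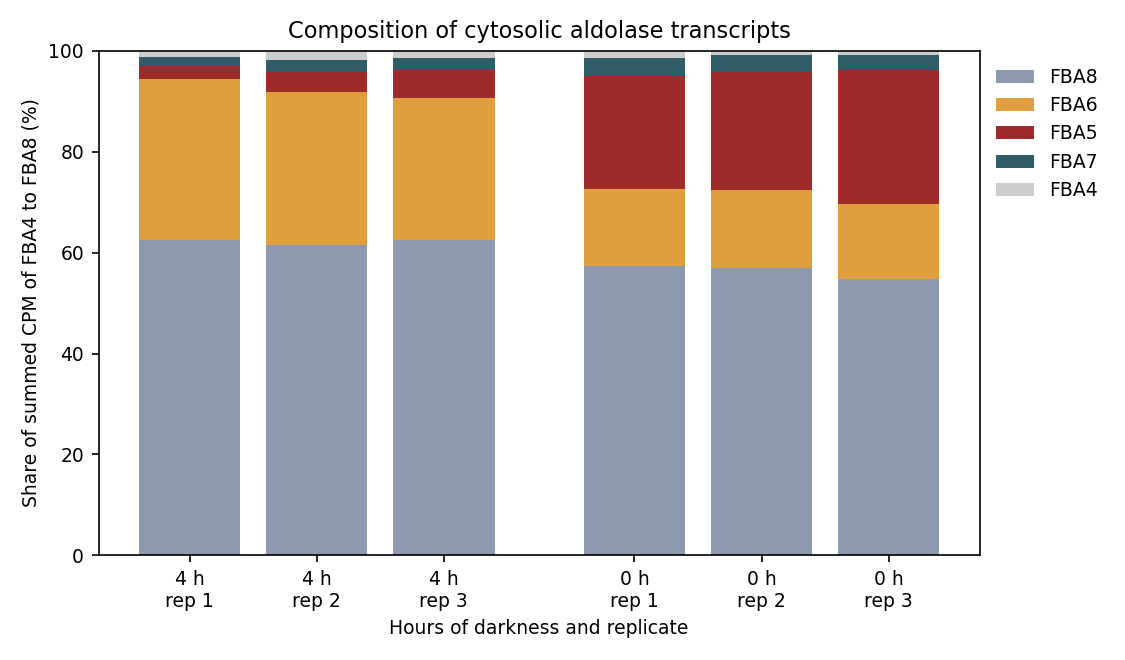
Share of the summed CPM of FBA4 to FBA8 held by each gene (percent, stacked), with 1 bar per library and the 4 h libraries left of the 0 h libraries. The FBA5 segment is 2.54% to 5.62% at 4 h and 22.4% to 26.5% at 0 h, and the FBA6 segment is 28.1% to 31.9% at 4 h and 14.9% to 15.4% at 0 h.

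In absolute terms the pool summed to 1146, 1217 and 1197 CPM at 4 h, against 1443, 1394 and 1539 CPM at 0 h, a ratio of 0.814 between the means. The difference of -272 CPM was made up of -304 CPM for FBA5, 136 CPM for FBA6, -84.4 CPM for FBA8, -22.9 CPM for FBA7 and a small remainder for FBA4. Without FBA5 the pool averaged 1139 ± 27.9 CPM at 4 h and 1107 ± 32.9 CPM at 0 h (SD, n = 3 each), a ratio of 1.03, and its libraries overlapped. The plastid aldolases FBA1, FBA2 and FBA3 together averaged 3001 ± 76.1 CPM at 4 h and 4992 ± 393 CPM at 0 h (SD, n = 3 each), a ratio of 0.601.

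At the step after aldolase, TPI (AT3G55440, chr3:20553403-20556560), the single cytosolic triose phosphate isomerase of the set, read 997, 1128 and 944 CPM at 4 h, against 869, 963 and 987 CPM at 0 h. The groups overlapped, with a log2 fold change of 0.12 (SE 0.14).

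GAPC1 (AT3G04120, chr3:1080942-1083690) and GAPC2 (AT1G13440, chr1:4608077-4610878) encode cytosolic glyceraldehyde phosphate dehydrogenases that differ at few residues, with 331 of 338 identical. Their last 300 transcript bases are only 64.0% identical, with no shared run longer than 10 bases. GAPC1 read 144, 176 and 145 CPM at 4 h, against 188, 295 and 173 CPM at 0 h. The groups met at the second 4 h library and the third 0 h library, and the log2 fold change was -0.50 (SE 0.19). It was -0.20 without the second 0 h library, the highest of the 6. GAPC1 was not past the threshold over all libraries, but it was without the third 0 h library, where the log2 fold change was -0.64.

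GAPC2 read 186, 116 and 121 CPM at 4 h, against 216, 208 and 220.2 CPM at 0 h. All 4 h libraries were lower, the first of them by the least, and the log2 fold change was -0.59 (SE 0.18). It was past the threshold over the 6 libraries but not when the second or the third 4 h library, or the first or the third 0 h library, was left out. The fold change was -0.85 without the first 4 h library and -0.45 without the second. The ratio of GAPC1 to GAPC2 reads was 0.775, 1.51 and 1.20 at 4 h, against 0.867, 1.42 and 0.784 at 0 h, and the ranges of the groups overlapped. Summed, both genes averaged 296 ± 31.9 CPM at 4 h and 434 ± 60.9 CPM at 0 h (SD, n = 3 each), a ratio of 0.683.

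PGK3 (AT1G79550, chr1:29924023-29926636), the cytosolic phosphoglycerate kinase, read 481, 424 and 487 CPM at 4 h, against 396, 426 and 484 CPM at 0 h. The groups overlapped, and the log2 fold change was 0.10 (SE 0.14). ENO2 (AT2G36530, chr2:15320756-15324129), the enolase also known as LOS2, read 351, 336 and 347 CPM at 4 h, against 433, 422 and 385 CPM at 0 h. Its 4 h libraries were all below its 0 h libraries, with a log2 fold change of -0.26 (SE 0.14) that was not past the threshold. FBA6 and ENO2 lie on the same strand of chromosome 2 with 22001 bases and 7 genes between them, and their fold changes had opposite signs.

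Summed over all 10 enzymes, the level was 3315 ± 78.4 CPM at 4 h and 3680 ± 123 CPM at 0 h (SD, n = 3 each), a ratio of 0.901. Without FBA5 the other 9 summed to 3267 ± 88.3 CPM at 4 h and 3328 ± 91.5 CPM at 0 h, a ratio of 0.982. FBA5 thus held most of the net difference in the summed level. The other 9 were not all level, since differences of opposite sign offset each other in their sum. Among these were 136 CPM for FBA6, -138 CPM for GAPC1 and GAPC2 together and -84.4 CPM for FBA8.

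To set genes beside each other, CPM was divided by transcript length, although 3′ end reads count transcripts and not bases. In CPM per kilobase of transcript, TPI came first at 4 h with 624, followed by FBA8 with 361, PGK3 with 270.2, FBA6 with 203 and ENO2 with 172. GAPC1 with 90.6 and GAPC2 with 78.8 overlapped, FBA5 stood at 34.8, and FBA7 with 16.4 overlapped FBA4 with 11.3. At 0 h the first places again went to TPI with 574 and FBA8 with 402. FBA5 came next with 256, overlapping PGK3 with 253, and above ENO2 with 206. GAPC1 with 128, FBA6 with 126 and GAPC2 with 120.1 overlapped their neighbours in that order, and FBA7 with 30.5 and FBA4 with 9.02 closed it. FBA5 therefore held place 8 in the order at 4 h and place 3 at 0 h. In CPM without division by length it again held place 8 at 4 h, where it overlapped FBA7. At 0 h it held place 5, after TPI, FBA8, PGK3 and ENO2, and overlapped both PGK3 and ENO2.

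The transcripts most like FBA5 across the 6 libraries were sought by Pearson correlation of log2 CPM among 5798 genes averaging 20 reads or more. The 5 closest were AT2G21530 (r = 0.998), CRT1b (0.997), which encodes an endoplasmic reticulum calreticulin, NPQ4 (0.996), the PsbS protein of energy dissipation in photosystem II, PnsB3 (0.996), a subunit of the chloroplast NDH complex, and XTH31 (0.996), of the xyloglucan-modifying enzymes of the cell wall. All 6 points come in groups of 3, so the correlation mostly follows the difference between 4 h and 0 h, and no p-value is attached to it. None of the 5 had a fold change as low as that of FBA5. PnsB3 came nearest, with 23.2, 36.1 and 45.5 CPM at 4 h, against 120, 124 and 167 CPM at 0 h, and a log2 fold change of -2.03 (SE 0.22). Like FBA5, it was lowest in the first 4 h library and highest in the third 0 h library. Such a shared order follows from the choice by correlation and is not particular to PnsB3.

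Upstream sequence was searched for 5 short motifs on both strands, from 250 bases before to 50 after the start of model 1 of each gene. The motifs were the G-box CACGTG, bound by bZIP and bHLH factors, the evening element AAAATATCT, bound by MYB-like factors of the circadian clock, the I-box GATAAG of light-regulated genes, the TATCCA element known from sugar-starvation-induced amylase genes of rice, and the W-box core TTGAC of WRKY factors. The evening element was present in FBA5 alone of the 10 genes and in 3% of the 10873 upstream windows searched. The TATCCA element was present in FBA5, TPI, GAPC1 and ENO2, and in 16.9% of all windows. These windows are shown with the motif in capitals, first the evening element of FBA5 and then the 4 windows with TATCCA. No motif match overlaps another in the windows shown.

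FBA5, chr4:13391182-13391211, plus strand: gttcattatctAAAATATCTcttgtgtttg
FBA5, chr4:13391300-13391329, plus strand: ctcttctccacaTATCCAagactttgggga
TPI, chr3:20553226-20553255, plus strand: ccacactatttgTATCCAagaaggggcatt
GAPC1, chr3:1080692-1080721, plus strand: agcaTATCCAaatacgctgcgtttcatgct
ENO2, chr2:15324272-15324301, minus strand: gacccacaaacaTATCCAttaagttatagt

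The motifs of FBA5 began 151 and 32 bases before the start of its model 1, and the second of them lies in the first exon of model 2, which begins 51 bases before that start. The genes sharing TATCCA had log2 fold changes of -2.94 (FBA5), 0.12 (TPI), -0.50 (GAPC1) and -0.26 (ENO2), with no common direction. The W-box core was present in FBA4, FBA8, GAPC2 and ENO2, against 50.1% of all windows. The G-box (9.14% of windows) and the I-box (15.1%) were absent from all 10 windows, and FBA6, FBA7 and PGK3 held none of the 5 motifs. A match is a stretch of letters and does not show binding.

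The other cytosolic genes of glycolysis give the surroundings of these 10. Of 27 listed, 16 were in the table and tested, of which 1 rose and 3 fell, with a median log2 fold change of -0.44. Over all genes tested, 8.37% rose and 8.18% fell, and the median was -0.06. HKL1, a hexokinase-like protein, rose to 96.0, 100.2 and 119.6 CPM at 4 h, against 56.2, 41.0 and 48.9 CPM at 0 h (log2 fold change 1.11, SE 0.19, edgeR adjusted p = 0.000151). HXK1, the hexokinase that also senses glucose, fell to 18.2, 9.93 and 11.9 CPM at 4 h, against 33.0, 35.9 and 17.2 CPM at 0 h, with overlapping groups (log2 fold change -1.05, SE 0.31, edgeR adjusted p = 0.0203). PFPbeta1, a subunit of the pyrophosphate-dependent phosphofructokinase just before aldolase, fell to 39.6, 48.8 and 51.4 CPM at 4 h, against 68.5, 64.1 and 71.6 CPM at 0 h (log2 fold change -0.57, SE 0.19, edgeR adjusted p = 0.0464). The phosphoglycerate mutase iPGAM1 fell to 7.28, 7.22 and 0.989 CPM at 4 h, against 11.0, 12.8 and 18.6 CPM at 0 h (log2 fold change -1.31, SE 0.43, edgeR adjusted p = 0.0376). HKL1 kept its call under each alternative, whereas the calls on the other 3 were lost with DESeq2. The call on HXK1 was also lost without the second or the third 4 h library or the first or the second 0 h library (adjusted p of 0.0744 to 0.110 in edgeR). That on PFPbeta1 was lost on leaving out any library other than the third of the 4 h group (0.0611 to 0.209), and that on iPGAM1 on leaving out any library other than the first of the 4 h group (0.0506 to 0.154). The 5 cytosolic pyruvate kinases tested held 0 calls in edgeR, 0 calls in DESeq2, and at an unadjusted p under 0.05 none higher and 1 lower. AT5G56350, with 173 reads at 4 h and 171 at 0 h, had a log2 fold change of 0.27. The others held only 6 to 45 reads at 4 h and 13 to 68 at 0 h, with log2 fold changes of -1.67 to -0.32. With so few reads, the lack of calls does not show an unchanged step.

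The plastid isoenzymes of the same steps were all tested, and of these 12 genes 0 rose and 5 fell in edgeR, with a median log2 fold change of -0.59. The shares over all genes tested were 8.37% and 8.18%. With no adjustment and p under 0.05, none lay higher and 6 lay lower, and DESeq2 likewise called 0 higher and 5 lower. The aldolase genes FBA1 (log2 fold change -1.05, SE 0.14, edgeR adjusted p = 5.19e-06) and FBA2 (-0.76, SE 0.13, adjusted p = 0.000151) fell, as did GAPA2 (-1.50, SE 0.22, adjusted p = 1.86e-05) and GAPB (-0.71, SE 0.14, adjusted p = 0.000761) of the photosynthetic dehydrogenase and the phosphoglycerate kinase PGK1 (-0.53, SE 0.13, adjusted p = 0.00600). GAPA1 (-0.21), GAPCp1 (-0.20), PGK2 (-0.04) and the plastid triose phosphate isomerase (-0.29) were not past the threshold. The plastid aldolase FBA3 was not past it either, at 438 ± 49.6 CPM at 4 h and 435 ± 20.2 CPM at 0 h (SD, n = 3 each), with a log2 fold change of 0.01. The plastid enolase ENO1 (-1.08, SE 0.42, edgeR adjusted p = 0.0845) was also not called, on 21 reads at 4 h and 52 at 0 h. Nor was GAPCp2 (-0.64, SE 0.42), on 28 reads at 4 h and 49 at 0 h. On so few reads, the lack of a call does not show that these 2 genes were unchanged. The log2 fold change of FBA5 was below that of each plastid aldolase, a difference between genes that was not tested. Beside these plastid genes stand the shoot markers RCA, the Rubisco activase (-0.61), and CAB3, a chlorophyll-binding protein (-0.65), which also fell, and RBCS1A (-0.01) and CAB1 (0.10), which did not pass the test.

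**Figure D4:**
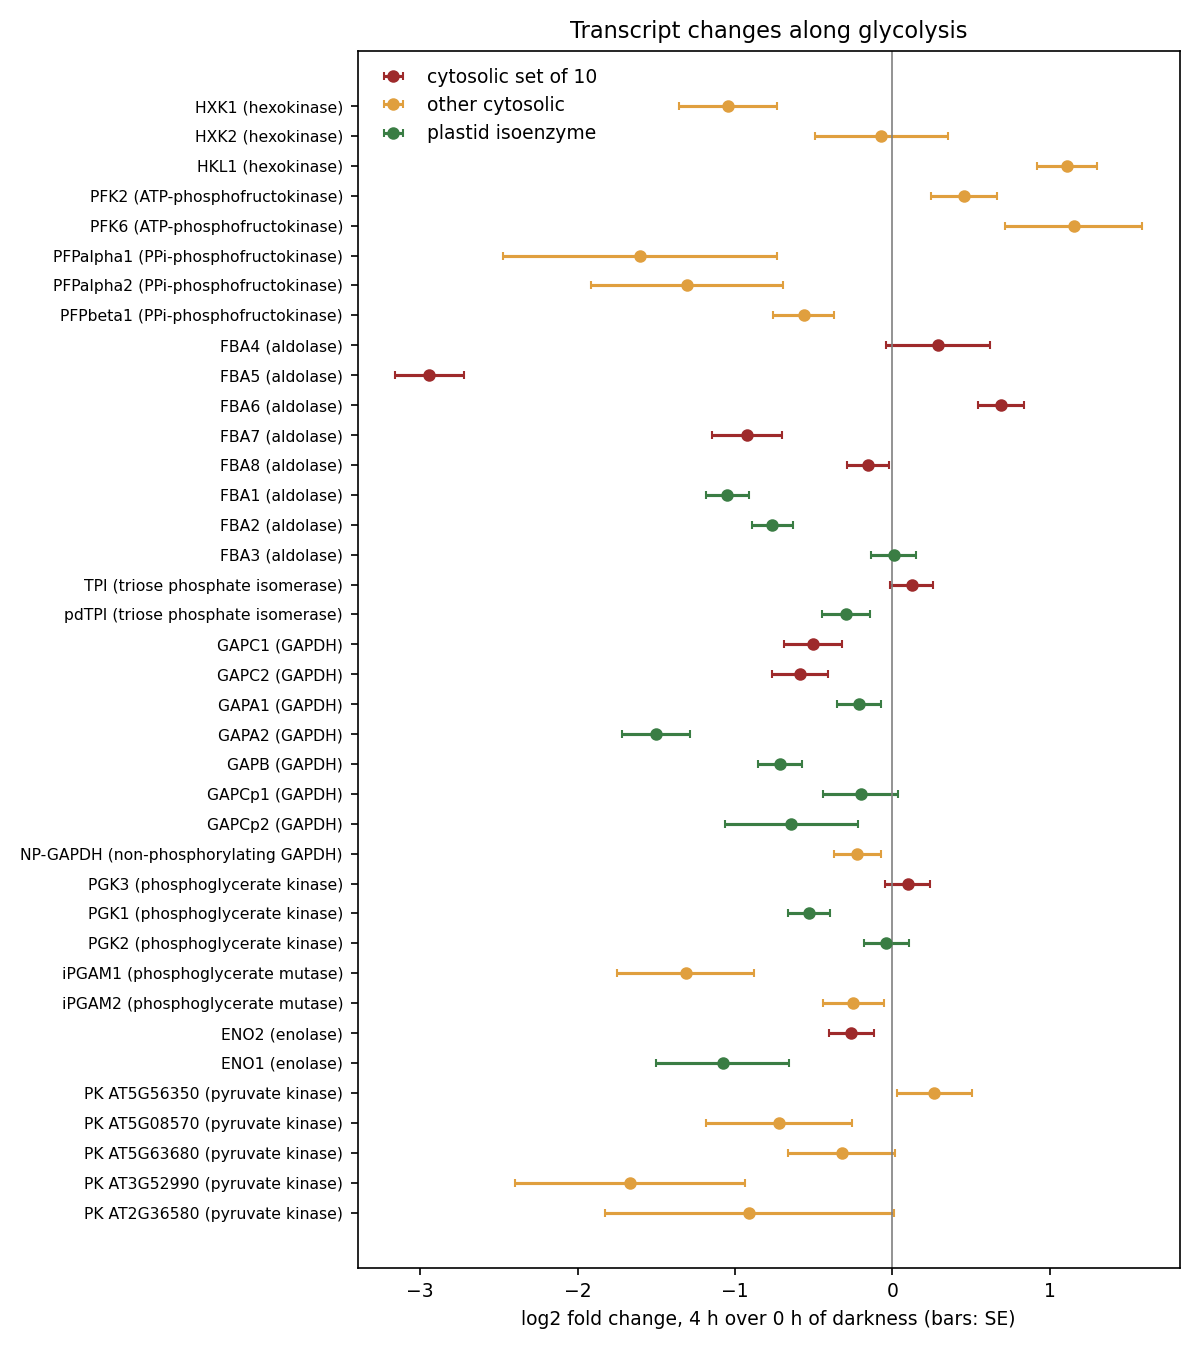
Log2 fold change of 4 h over 0 h for each tested gene of glycolysis in pathway order from top to bottom, with bars for the SE, for the 10 cytosolic enzymes described (red), the other cytosolic genes (orange) and the plastid isoenzymes (green). FBA5 at -2.94 is the leftmost point, and FBA6 at 0.69 is the rightmost red point.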

How the data were processed

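RNA was profiled in 6 libraries of whole flu seedlings, 3 after 4 h and 3 after 0 h of darkness, by bulk MARS-seq on an Illumina NextSeq, and groups and replicate numbers came from the sample titles. STAR, HTSeq, cutadapt 1.8.3, DESeq2, DESeq and bcl2fastq 2.17.1.14 are the tools in the submitters' processing notes, and the methods of the study give the Araport annotation. Whether counting used strand is not given in the sources used here. The authors deposited raw counts of reads per gene with no filter on molecular identifiers, so counts may include amplification copies. The deposited signal, counts divided by 1 size factor per library, served only to supply an alternative scaling, and the deposited regularised log2 values were not tested.

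The filter kept genes that reached 5 reads in 1 library or more, and counts were tested in edgeR 4.0.16 (R 4.3.3) by the quasi-likelihood test with the group as the only term. Scaling used the trimmed mean of M-values, and the Benjamini-Hochberg adjustment ran over all genes tested, with 0.05 as the threshold. No source says that replicates were grown separately, so each p-value measures only how these samples vary, which may be technical. To look for a library deposited under 2 names, counts of replicate pairs were compared by chi-square, which gave 3.17 to 6.20 per degree of freedom, and no pair was merged. The floor of 3 reads covers counting error only.

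The 10 enzymes and all gene lists were chosen with earlier results of these data known. The rule for naming took each of the 10, every gene of the other lists past the threshold or among the 4 smallest p of its list, and the 5 transcripts most like FBA5. Further genes of these lists, and the shoot and root markers, are named outside this rule. Alternatives were DESeq2 1.42.0, limma-voom (limma 3.58.1), other scalings and filters, leaving out organelle genes, the replicate number as a block and leaving out each library. Gene models and sequences are RefSeq's for TAIR10.1, in which 11108 identifiers matched. Identities were computed with Biopython 1.88 and figures drawn with matplotlib 3.10.9 (Python 3.11.15). The study's data list assigns the series to another treatment, and the labels were followed.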

Additional observations from a re-analysis of the deposited data

How the results depend on the processing

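FBA6 stayed past the threshold on the higher side, and FBA5 and FBA7 on the lower side, under each of the 17 alternatives, and no fold change of the 10 enzymes changed sign in them. As the genes were chosen on this same comparison, these calls describe the settings and are no independent support. The number of the 10 past the threshold on the lower side ranged from 2 to 3 on leaving out single libraries, with GAPC2 lost in 4 of these and GAPC1 in its place in 1 of them. It was 4 under upper-quartile scaling, library size only, filterByExpr and the replicate block, where GAPC1 was added. Over all genes tested, 869 fell in edgeR and 543 with DESeq2, and 569 to 723 on leaving out single libraries, the lowest without the second 4 h library. On the higher side these numbers were 889, 750 and 610 to 825. Of the other cytosolic genes 3 fell in edgeR and 0 with DESeq2, where 1 rose, and 0 to 2 fell on leaving out single libraries. With DESeq2 the adjusted p was 0.0564 for HXK1, 0.104 for PFPbeta1 and 0.0923 for iPGAM1, and over all alternatives the highest was 0.110 for HXK1, 0.209 for PFPbeta1 and 0.154 for iPGAM1. The cause was not tested. The counts of plastid isoenzymes that fell stayed at 5 under every alternative run.

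Deviations of same-numbered libraries of the groups were only weakly correlated (-0.012, 0.041 and 0.061 over 5799 genes). The second and the third 4 h library each correlated best with the 0 h library of the same number, and the first with the second 0 h library (0.045). With the replicate number as a block, 988 genes rose and 991 fell, against 889 and 869 without it. The SE of the log2 fold change was 0.15 for FBA6 and 0.33 for FBA4, with 72 reads at 4 h and 71 reads at 0 h, and 0.95 for F2KP, with 5 reads at 4 h and 11 reads at 0 h.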

Other observations

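Genes of the reactions that run beside or against cytosolic glycolysis were also looked at. Over all genes tested, 8.37% rose and 8.18% fell, and nothing is read from counts over so few genes. Of 7 listed, 5 were tested, and 0 rose and 1 fell in edgeR, the same as with DESeq2, and with no adjustment 0 lay higher and 1 lower at p under 0.05. PPC2, a phosphoenolpyruvate carboxylase that turns the product of enolase into oxaloacetate, fell to 78.3, 64.1 and 80.1 CPM at 4 h, against 183, 144 and 144 CPM at 0 h. The groups did not overlap, with a log2 fold change of -1.08 (SE 0.18) and an adjusted p of 0.000101 in edgeR. The other carboxylase, PPC1, had a log2 fold change of -0.37. PCK1, which forms phosphoenolpyruvate from oxaloacetate, had -0.14, with 151 to 252 CPM at 4 h and 131 to 351 CPM at 0 h. The cytosolic fructose bisphosphatase, which takes the product of the reverse aldolase reaction toward sucrose, averaged 165 ± 26.0 CPM at 4 h and 183 ± 30.4 CPM at 0 h (SD, n = 3 each), a log2 fold change of -0.14. F2KP, the enzyme that makes and removes the regulator of that step, had 5 reads at 4 h and 11 reads at 0 h.

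Both ATP-dependent phosphofructokinase genes tested lay higher at 4 h without passing the adjusted threshold in edgeR, and they are named here after their values were seen. PFK6 read 12.3, 8.13 and 7.91 CPM at 4 h, against 4.28, 4.10 and 4.82 CPM at 0 h (log2 fold change 1.15, SE 0.44, adjusted p = 0.0733). PFK2 had a log2 fold change of 0.46 (SE 0.21, adjusted p = 0.148), and its libraries did not overlap either.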
